A study of Mus musculus with 34 samples.

Results

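The 44 genes whose symbol has the form Col, a type number, the letter a and a chain number encode the alpha chains of the collagens, and they were followed through 34 libraries of cortical astrocytes from wild-type male mice. They were chosen by symbol alone, out of 20613 genes with values, and comprised 11 chains of fibril-forming collagens, 6 chains of the basement membrane collagen type IV and 27 chains of other types. The astrocytes had been isolated magnetically from the cortex at 9 ages, and their polyadenylated RNA was sequenced. There were 4 libraries at postnatal day 7 (P7), 4 at P14, 3 each at P21, P28 and P60, 5 each at 3 and 6 months (3m and 6m), 3 at 12m and 4 at 18m. No treatment or altered allele separates the groups, which differ by age. The labels do not say whether each library came from its own mouse, so p-values measure only the spread between these libraries, which may be technical.

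Collagens are built from 3 alpha chains wound into a triple helix. Fibrillar collagens are cut outside the cell and assemble into fibrils, whereas type IV collagen forms the sheet-like network of basement membranes, including the one around brain vessels. In the brain most collagen is made by fibroblasts of the meninges and vessel walls, by endothelial cells and by mural cells, and single chains are also expressed by glia. Values are TPM, transcript shares corrected for gene length, which can be compared between genes within a library. Tests were run with limma on log2(TPM + 1), in a single fit to all 34 libraries, and p-values were adjusted over all 14590 genes tested, those reaching 1 TPM in 3 or more libraries. A gene is called where its adjusted p is under 0.05. Fold changes on this log2 scale understate the change of genes of low level. Read counts cannot be recovered from TPM, and sequencing depth is therefore unknown.

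The filter kept 33 of the 44 collagen genes, and 19 genes reached 1 TPM in every library. None of the 11 others exceeded 1.12 TPM in any library. They were Col24a1, a fibrillar chain, the type IV chains Col4a3 and Col4a4, the type VI chains Col6a4 and Col6a6, the anchoring fibril chain Col7a1, the cartilage network chain Col10a1, the basement membrane zone collagen Col15a1, the transmembrane collagen Col17a1, and Col19a1 and Col20a1, which bind to fibrils. Counts below are over the 33 genes tested and do not speak for these 11. A test for any difference among the 9 ages called 24 of the 33, where 63.6% of all genes tested were called. The count over the collagens is thus close to the background of this data set.

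The libraries fell into separate ranges by the number of genes at 0 TPM, which touches several comparisons. The 14 libraries of P7, P14, 18m and of replicates 1 and 2 of 12m had 4109 to 4819 genes at 0. In the 9 from P21, P28 and P60 the number was 2854 to 3523, and in the 11 libraries of 3m, 6m and replicate 3 of 12m it was 1155 to 1704. Age and range cannot be told apart for P60 vs P7, P21 vs P14, 3m vs P60, 18m vs 3m and 18m vs 6m. By contrast, 18m vs P7, P14 vs P7, P60 vs P21 and 6m vs 3m stay within a range. Comparisons with 12m cross ranges in part. Astrocyte markers were high throughout: the summed level of 10 of them was 10723 to 27167 TPM. That sum differed by age, with 10723 to 12846 TPM at P7, 21435 to 22384 TPM at P60 and 11224 to 19945 TPM at 3m. At 18m it was 14724 to 22354 TPM. The part of these differences in the collagen results was not tested. The 10 fibroblast markers together reached 410 to 1595 TPM, the 10 endothelial markers 243 to 2992 TPM, the 10 mural markers 1433 to 5818 TPM, the 6 precursor markers of oligodendrocytes 116 to 381 TPM and the 5 choroid plexus markers 8.77 to 213 TPM. Summed microglial markers spanned 66.9 to 146 TPM, neuronal markers 23.1 to 481 TPM and oligodendrocyte markers 190 to 2503 TPM. No marker was at 0 in every library of an age, apart from the myelin gene Mobp at P7. In bulk RNA, fewer cells of a type and less RNA per cell cannot be told apart.

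By mean, collagen transcripts together were most abundant at P7 and least abundant at P60. Single libraries overlapped between ages, with the highest sum at 3m (371.3 TPM) and the lowest at 6m (137.5 TPM). The 44 genes summed to 324.6 ± 34.3 TPM at P7 (SD, n = 4), 247.6 ± 30.4 at P14 (n = 4), 197.1 ± 16.4 at P21 (n = 3), 195.9 ± 25.3 at P28 (n = 3), 168.6 ± 32.1 at P60 (n = 3), 303.4 ± 51.2 at 3m (n = 5), 208.9 ± 61.3 at 6m (n = 5), 214.97 ± 68.3 at 12m (n = 3) and 200.8 ± 40.6 at 18m (n = 4). Of the 33 genes tested, 21 had their highest mean at P7 and 4 at 3m, while 15 had their lowest mean at P60. The same shares over all genes were not computed, so these counts describe the collagens without a background. The fibrillar chains kept a similar share of collagen TPM, with means of 27.1% to 33.9% across ages. Type IV chains took 22.3% ± 1.59 at P7 and 11.3% ± 1.75 at P60, then 19.9% ± 4.29 at 3m. The other chains took 45.2% ± 2.46 at P7 and 57.8% ± 4.73 at P60.

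**Figure D1:**
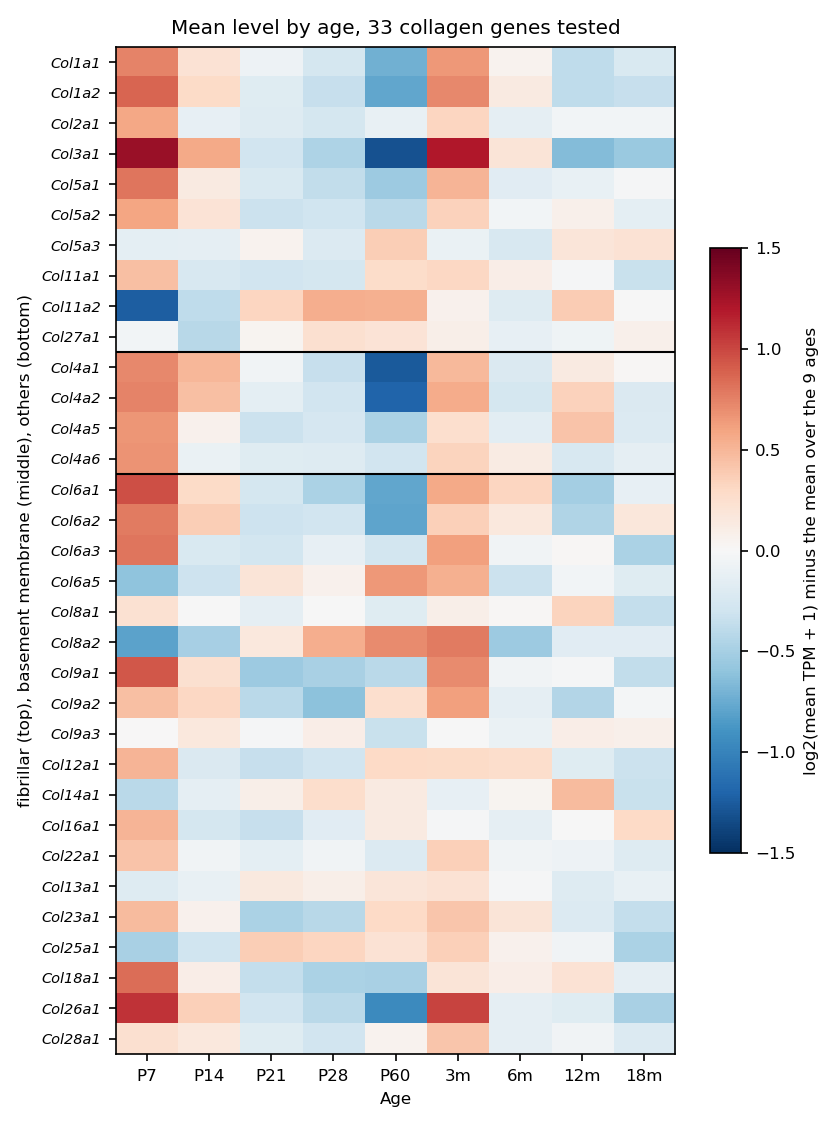
Log2(mean TPM + 1) of the 33 collagen genes tested, as colour, after subtracting the mean of each gene over the 9 ages; rows are genes grouped by class, columns are ages from P7 to 18m, red is above and blue below the mean of the gene. For 21 of the 33 genes the P7 column holds the highest mean, and for 15 the P60 column holds the lowest. The shares over all genes were not computed.

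A few chains made up most of the collagen signal. Col9a3, a chain of type IX collagen, which sits on the surface of fibrils, led at every age but P7, with means of 34.3 to 48.3 TPM. Col1a2, the second chain of type I collagen, led at P7 with 46.4 TPM, or 14.3% of collagen TPM, and stood at rank 4 at P60 with 14.1 TPM. Col4a1, a main chain of type IV collagen, was at rank 3 at P7 with 36.5 TPM and at rank 5 at P60 with 8.50 TPM. Col11a2, a fibrillar chain best known from cartilage, stood second at P60 with 16.1 TPM. By mean, the leading gene thus differed between P7 and the later ages, but Col9a3 was close behind at P7 with 43.6 TPM. Col1a2 exceeded Col9a3 in P7 replicate 1 alone. At 3m the means were close as well, with 43.2 TPM for Col9a3 and 41.6 TPM for Col1a2.

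The study set out to follow astrocytes through development and aging, and for development P60 was set against P7. Fewer collagen transcripts were seen at P60: 17 of the 33 genes tested were called lower and 6 higher, with 10 not called. Over all genes tested, 33.3% were called lower and 19.5% higher. The median log2 fold change was -0.63 over the collagens and -0.15 over all genes. Lower calls numbered 17 after either rescaling of the libraries, by median of ratios or by quantile normalization, and higher calls 7 after the first and 4 after the second. Of the 10 fibrillar chains tested 6 were lower and 2 higher, all 4 type IV chains tested were lower, and of the 19 other chains tested 7 were lower and 4 higher.

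Among the fibrillar chains the fall was steepest for Col3a1, the chain of type III collagen found beside type I in vessel walls and meninges. It measured 2.76, 2.92 and 2.74 TPM in the P60 libraries, against 28.4, 23.5, 17.5 and 18.9 TPM in the P7 libraries. Every P60 library was thus far below every P7 library. The mean was 7.86-fold lower, with a log2 fold change of -2.58 ± 0.35 (SE, adjusted p = 1.05e-05). Col1a2 measured 13.3, 14.4 and 14.5 TPM at P60, against 56.1, 47.7, 42.6 and 39.2 TPM at P7. Its partner Col1a1 measured 3.32, 3.23 and 3.44 TPM at P60, against 13.7, 11.1, 11.1 and 7.98 TPM at P7. Both type I chains were 3.30-fold lower at P60 without overlap between the ages. The log2 fold change was -1.64 ± 0.28 for Col1a2 (adjusted p = 8.95e-05) and -1.45 ± 0.25 for Col1a1 (adjusted p = 9.18e-05). The type V chains, which set the diameter of type I fibrils, were lower as well: Col5a1 by 3.64-fold (log2 fold change -1.34 ± 0.28, adjusted p = 0.000518) and Col5a2 by 2.32-fold (-1.02 ± 0.27, adjusted p = 0.0035). Col2a1, the main cartilage chain, fell to 0.228 ± 0.18 TPM at P60, against 0.977 ± 0.16 TPM at P7 (SD, log2 fold change -0.69 ± 0.17 SE, adjusted p = 0.002).

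Not every fibrillar chain fell: Col11a2 and Col5a3 were higher at P60. Col11a2 measured 15.1, 16.4 and 16.7 TPM at P60, against 3.60, 4.17, 4.91 and 3.24 TPM at P7. The lowest P60 library was above the highest P7 library, and the mean was 4.04-fold higher (log2 fold change 1.79 ± 0.43, adjusted p = 0.00142). Across the ages Col11a2 averaged 3.98 TPM at P7, 8.01 at P14, 13.7 at P21, 16.1 at P28 and 16.1 at P60, so most of the difference was present by P21. Beside the chains that rose, 5 of 6 oligodendrocyte markers were called higher at P60 and none lower, with a median log2 fold change of 3.16 and sums of 1303 to 2428 TPM at P60 and 235 to 387 TPM at P7, and their part in the result was not tested. Col5a3, a further type V chain, averaged 3.63 ± 0.43 TPM at P60 and 2.21 ± 0.15 TPM at P7, a 1.64-fold difference (log2 fold change 0.52 ± 0.17, adjusted p = 0.0133). Without P60 replicate 3 that call was lost (adjusted p = 0.0529, with 0.000927 to 0.0529 over all alternatives). Col27a1 and Col11a1 were not called.

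**Figure D2:**
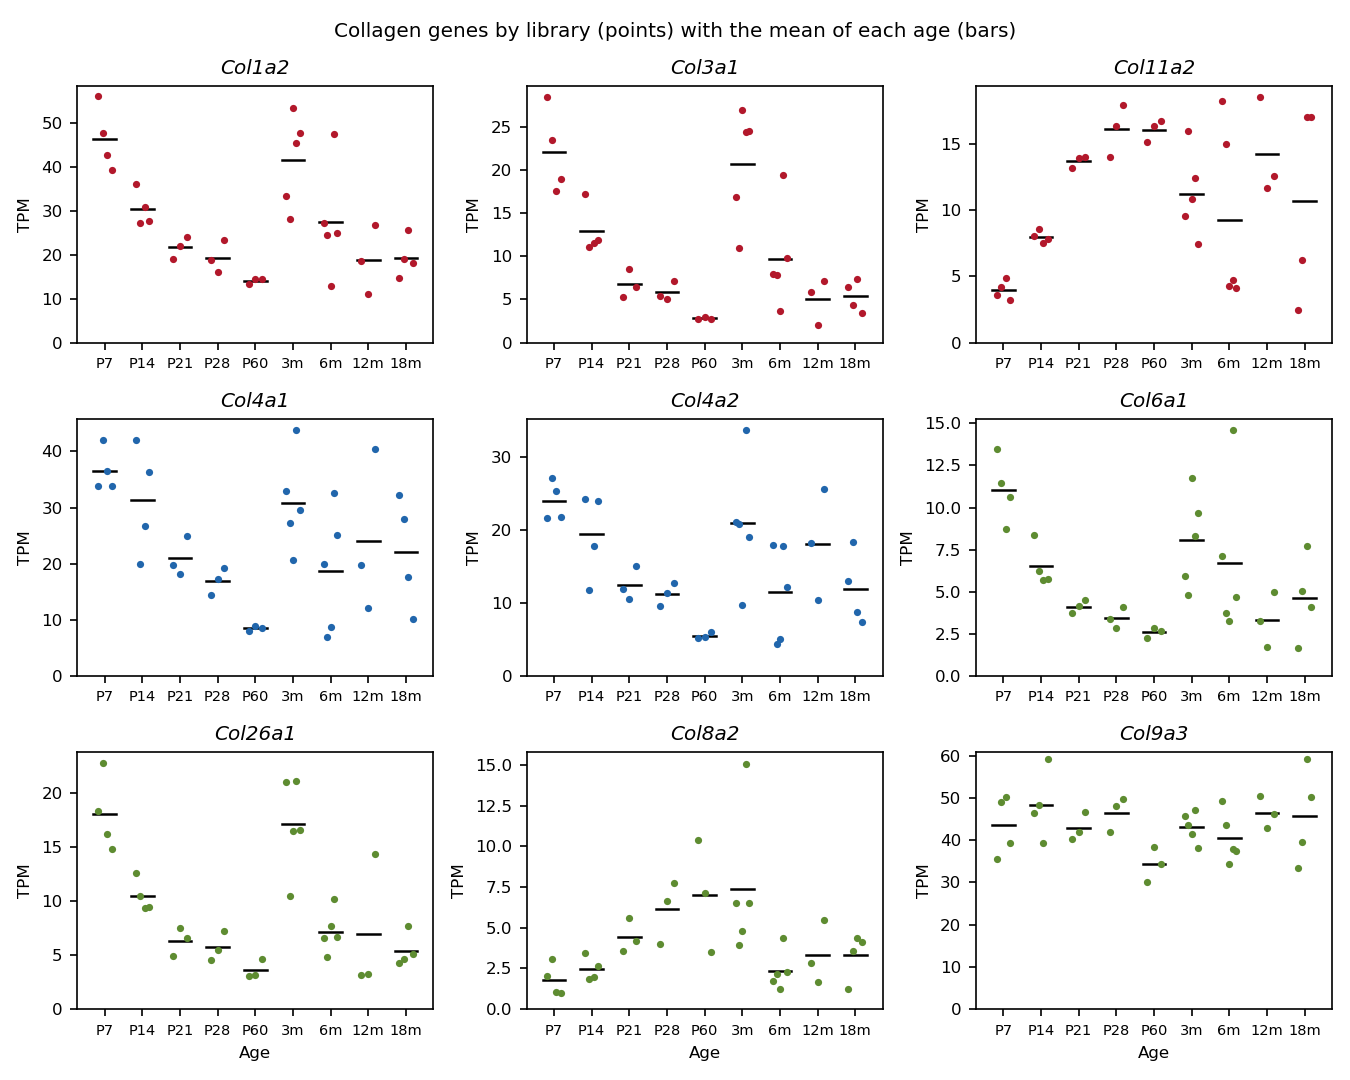
TPM of 9 collagen genes in each of the 34 libraries, by age from P7 to 18m; points are libraries and bars mark the mean of each age. The 3 P60 libraries of Col3a1 lie between 2.74 and 2.92 TPM, below every P7 library, while those of Col11a2 lie between 15.1 and 16.7 TPM, above every P7 library.

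Promoter windows are shown for members that moved in opposite directions, 2 lower and 2 higher at P60, as the sequence in front of the genes described here. RefSeq (GRCm38.p6) gave a promoter entry for 35 of the 44 genes, with 38 windows of 250 bases upstream of a start. Only the 20 windows free of annotated exons were used, and 2 motifs were searched on both strands. The first motif was TATAA, which reads TTATA on the other strand. The second was GGGCGG, which reads CCGCCC there, and the motifs do not overlap each other. Each window ends at the base before the start, and capitals mark the motifs. The first 2 windows belong to genes lower at P60, Col3a1 (chr1:45311288-45311537, + strand) and the fibril-associated Col9a1 (chr1:24177360-24177609, + strand). The last 2 belong to genes higher at P60, Col11a2 (chr17:34038888-34039137, + strand, in front of a RefSeq start that lies upstream of the GENCODE gene start at 34039437) and Col5a3 (chr9:20815068-20815317, - strand).
Col3a1: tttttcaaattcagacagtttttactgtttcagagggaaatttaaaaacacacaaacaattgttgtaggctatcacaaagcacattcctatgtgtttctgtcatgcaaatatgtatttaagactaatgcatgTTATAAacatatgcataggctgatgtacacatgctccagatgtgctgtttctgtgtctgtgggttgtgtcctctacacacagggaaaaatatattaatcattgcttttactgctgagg
Col9a1: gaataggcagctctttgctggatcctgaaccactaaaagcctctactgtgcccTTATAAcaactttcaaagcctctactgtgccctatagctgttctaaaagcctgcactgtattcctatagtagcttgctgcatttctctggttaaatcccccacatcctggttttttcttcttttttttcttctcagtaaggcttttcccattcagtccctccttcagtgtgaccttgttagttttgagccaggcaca
Col11a2: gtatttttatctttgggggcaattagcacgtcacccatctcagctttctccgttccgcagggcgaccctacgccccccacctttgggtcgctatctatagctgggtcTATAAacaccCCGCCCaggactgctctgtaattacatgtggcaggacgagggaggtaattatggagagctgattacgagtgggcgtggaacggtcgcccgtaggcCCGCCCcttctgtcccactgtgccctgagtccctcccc
Col5a3: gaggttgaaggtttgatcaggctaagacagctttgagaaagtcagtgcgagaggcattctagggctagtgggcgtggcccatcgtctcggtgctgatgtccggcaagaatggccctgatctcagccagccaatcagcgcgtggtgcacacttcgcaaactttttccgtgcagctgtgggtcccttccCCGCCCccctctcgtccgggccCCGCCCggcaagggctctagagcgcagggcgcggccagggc

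Col3a1 and Col9a1 each carried TTATAA, which reads as TATAA on either strand, and no GGGCGG. Its TATAA matches began 118 and 117 bases before the start in Col3a1 and 197 and 196 bases before it in Col9a1. Col11a2 carried TATAA beginning 143 bases before its start and CCGCCC in 2 places, and Col5a3 carried CCGCCC in 2 places without TATAA. Of the 6 exon-free windows of genes lower at P60, 3 held TATAA and 3 held GGGCGG. The lower genes not printed differed from the printed ones: Col5a1 and Col6a2 held GGGCGG without TATAA, Col4a6 held both and Col6a3 neither. Of the 4 windows of genes higher at P60, 1 held TATAA and 4 held GGGCGG. Over 32851 windows of this length in the table, 22.8% held TATAA and 32.7% held GGGCGG. Those windows were not limited to ones free of annotated exons, unlike the windows of the collagen genes. A match is a description of the letters and not a binding site.

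The type IV chains, which build the vascular basement membrane, fell together between these ages. Col4a1 measured 8.01, 8.97 and 8.54 TPM at P60, against 33.8, 42.0, 36.4 and 33.8 TPM at P7. Col4a2, its partner in the main type IV trimer, measured 5.23, 5.29 and 6.00 TPM at P60, against 21.6, 27.1, 25.2 and 21.7 TPM at P7. Neither gene overlapped between the ages, and the means were 4.29-fold and 4.34-fold lower at P60. The log2 fold change was -1.98 ± 0.40 for Col4a1 (adjusted p = 0.000436) and -1.93 ± 0.39 for Col4a2 (adjusted p = 0.000392). Col4a5 and Col4a6, neighbouring chains of another type IV network, were lower by 2.57-fold (log2 fold change -1.14 ± 0.26, adjusted p = 0.00101) and 3.36-fold (-0.97 ± 0.20, adjusted p = 0.000388). Col4a3 and Col4a4 averaged 0.211 to 0.651 TPM across the ages and were not tested.

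Type IV genes lie head to head in pairs, and the pairs differed in level. In GENCODE M21 (GRCm38), Col4a1 lies on chromosome 8 from 11198423 to 11312826 on the minus strand and Col4a2 from 11312805 to 11449287 on the plus strand, so the annotated genes overlap by 22 bases. Col4a4 and Col4a3 on chromosome 1 are 71 bases apart, and Col4a6 and Col4a5 on chromosome X are 1308 bases apart. Whether reads were counted by strand is not given in the sources used here, so reads in an overlap cannot be assigned with certainty. The same holds for Col9a3, which overlaps Tcfl5, and Col18a1, which overlaps Slc19a1. The ratio of Col4a1 to Col4a2 TPM was 1.60 ± 0.28 (SD) over the 34 libraries, from 1.09 to 2.50. The ratio of Col1a2 to Col1a1, whose chains enter the type I helix in a fixed proportion, was 4.11 ± 0.51, from 3.30 to 5.32. The mean of the first ratio ran from 1.28 at 12m to 1.86 at 18m, and that of the second from 3.77 at P21 to 4.35 at 12m. The levels themselves differed several-fold between ages. Wider ranges over the 34 libraries were seen for Col6a1 to Col6a2, from 0.612 to 2.47, and for Col5a2 to Col5a1, from 0.614 to 4.60.

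Among the other types, the largest fall was that of Col26a1, a short collagen with an EMI domain. It measured 3.08, 3.18 and 4.68 TPM at P60, against 18.4, 22.8, 16.2 and 14.8 TPM at P7. The ages did not overlap, and the mean was 4.95-fold lower (log2 fold change -2.03 ± 0.30, adjusted p = 2.68e-05). Type VI collagen, which forms beaded filaments around cells, fell in its 3 main chains. Col6a1 averaged 2.59 ± 0.29 TPM at P60 and 11.1 ± 2.0 TPM at P7 (log2 fold change -1.74 ± 0.35 SE, adjusted p = 0.000379). Col6a2 averaged 1.96 ± 0.32 TPM at P60 and 7.81 ± 1.3 TPM at P7 (-1.57 ± 0.33, adjusted p = 0.000473). Col6a3 averaged 1.12 ± 0.49 TPM at P60 and 3.46 ± 0.93 TPM at P7 (-1.08 ± 0.25, adjusted p = 0.00105). Col18a1, whose C-terminal fragment is endostatin, fell to 2.39 ± 1.3 TPM at P60, against 7.44 ± 1.4 TPM at P7 (-1.37 ± 0.37, adjusted p = 0.00355). Col22a1, known from tissue junctions, was lower by 2.50-fold (-0.63 ± 0.17, adjusted p = 0.0037).

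Col6a5, Col8a2, Col14a1 and Col25a1 were higher at P60. Col8a2, a chain of the network-forming type VIII collagen, measured 10.4, 7.13 and 3.48 TPM at P60, against 2.05, 3.10, 1.08 and 0.962 TPM at P7 (log2 fold change 1.48 ± 0.38, adjusted p = 0.00243). The P60 libraries spread widely yet all exceeded the P7 libraries. Col6a5, a further type VI chain, measured 1.49, 1.51 and 1.46 TPM at P60, against 0.167, 0.0081, 0 and 0.0103 TPM at P7 (1.25 ± 0.23, adjusted p = 0.000176). Its P7 level was close to 0, so no fold of means is given. Col25a1, a neuronal transmembrane collagen found in amyloid plaques, averaged 1.29 ± 0.51 TPM at P60 and 0.399 ± 0.19 TPM at P7 (0.70 ± 0.22, adjusted p = 0.00982). Col14a1, which binds to fibrils, averaged 0.997 ± 0.093 TPM at P60 and 0.378 ± 0.32 TPM at P7 (0.56 ± 0.20, adjusted p = 0.0206). The call for Col25a1 was lost without P60 replicate 3 (adjusted p = 0.0684, with 0.000208 to 0.0684 over all alternatives), and the calls for Col25a1 and Col14a1 were both lost after quantile normalization. The call for Col14a1 was lost without P60 replicate 1 (adjusted p = 0.0662) and without P7 replicate 4 (adjusted p = 0.0905, with 0.00295 to 0.242 over all alternatives). Beside Col25a1, the 6 neuronal markers summed to 239 to 481 TPM at P60 and 23.1 to 39.1 TPM at P7, with 5 of 6 called higher, and their part in the result was not tested.

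Type IX collagen did not move as a unit. Col9a1 was 3.88-fold lower at P60, with 0.912, 1.52 and 0.927 TPM against 4.18, 4.39, 4.68 and 4.14 TPM at P7 (log2 fold change -1.35 ± 0.29, adjusted p = 0.000562). Col9a3 measured 30.0, 38.4 and 34.3 TPM at P60, against 35.7, 49.1, 50.2 and 39.3 TPM at P7. Those ages overlapped, and Col9a3 was not called (-0.33 ± 0.16, adjusted p = 0.0734). Without P7 replicate 1 it passed (adjusted p = 0.035, with 0.035 to 0.327 over all alternatives). The ratio of Col9a3 to Col9a1 was 31.7 ± 5.98 at P60 and 9.99 ± 1.22 at P7 (SD). Col9a2 measured 3.32, 16.1 and 4.19 TPM at P60, against 8.85, 13.5, 8.39 and 5.87 TPM at P7, and was not called (-0.43 ± 0.38, adjusted p = 0.338).

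P60 replicate 2 stood above its fellows for several chains. Besides Col9a2, it held 23.0 TPM of the fibril-associated Col16a1, against 12.1 and 11.6 TPM in the other P60 libraries, and 11.8 TPM of the transmembrane Col23a1, against 2.64 and 3.34 TPM. Without it, Col9a2 (adjusted p = 0.019, with 0.019 to 0.917 over all alternatives), Col16a1 (adjusted p = 0.0282, with 0.0282 to 0.44) and Col23a1 (adjusted p = 0.0174, with 0.0174 to 0.893) were called lower at P60. With it, none of these 3 was called.

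Genes that act on collagen moved in the same contrast. Of 29 genes for folding, modifying, cutting and crosslinking collagen, 26 were tested: 19 were lower at P60, 1 was higher and 6 were not called, with a median log2 fold change of -0.78, beside 33.3% of all genes lower and 19.5% higher. The prolyl isomerase Ppib, which folds procollagen, averaged 459.8 TPM at P60 and 816.9 TPM at P7 (log2 fold change -0.83 ± 0.11). The prolyl hydroxylase subunit P4ha3 averaged 14.3 TPM at P60 and 36.2 TPM at P7 (-1.28 ± 0.24). The crosslinking enzyme Loxl2 averaged 0.689 TPM at P60 and 2.43 TPM at P7 (-1.01 ± 0.20). Of 7 collagen receptors tested, 4 were lower and 1 higher. The collagen-activated kinase Ddr2 averaged 6.74 TPM at P60 and 13.6 TPM at P7 (-0.93 ± 0.19), and the integrin subunit Itgb1 60.8 TPM at P60 and 136.5 TPM at P7 (-1.16 ± 0.25). The inhibitory receptor Lair1 averaged 8.68 TPM at P60 and 5.70 TPM at P7 (0.53 ± 0.17, adjusted p = 0.0114), a call lost without P60 replicate 1 (adjusted p = 0.054, with 0.000583 to 0.054 over all alternatives). Apart from Lair1, the adjusted p of the genes named here ran from 4.96e-06 for Ppib to 0.000649 for Itgb1.

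Other basement membrane components and matrix-cutting enzymes were mixed. Of 16 partners of type IV collagen tested, 9 were lower and 3 higher at P60, beside 33.3% and 19.5% of all genes. Agrin (Agrn) averaged 16.3 TPM at P60 and 41.2 TPM at P7 (log2 fold change -1.29 ± 0.22), the laminin chain Lamb1 2.89 TPM at P60 and 11.1 TPM at P7 (-1.65 ± 0.32), and nidogen 2 (Nid2) 4.98 TPM at P60 and 17.7 TPM at P7 (-1.66 ± 0.35). Of 13 genes for matrix degradation tested, 7 were lower and 2 higher. The gelatinase Mmp9 averaged 0.126 TPM at P60 and 2.60 TPM at P7 (-1.67 ± 0.30), the gelatinase Mmp2 2.64 TPM at P60 and 10.6 TPM at P7 (-1.66 ± 0.31), and the cathepsin Ctsk 7.59 TPM at P60 and 23.6 TPM at P7 (-1.50 ± 0.31). Adjusted p-values of these 6 genes ran from 8.22e-05 to 0.000569.

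Most markers of fibroblasts and endothelial cells were called lower at P60 too, beside 33.3% of all genes lower and 19.5% higher. Of the 10 fibroblast markers, none of them a collagen, 7 were lower and 3 not called, with a median of -1.16. Their sum ranged from 610 to 756 TPM at P60 and from 894 to 1595 TPM at P7. Decorin (Dcn) averaged 119 TPM at P60 and 243.9 TPM at P7 (2.05-fold lower, adjusted p = 0.0111), while lumican (Lum) averaged 22.7 TPM at P60 and 28.1 TPM at P7 and was not called (-0.23 ± 0.25, adjusted p = 0.444). Of the 10 endothelial markers 6 were lower, with a median of -1.17. Their sum was not lower: it ranged from 756 to 1163 TPM (median 862) at P60 and from 703 to 1122 TPM (median 820) at P7. The tight junction gene Cldn5 averaged 112.7 TPM at P60 and 367 TPM at P7 (-1.81 ± 0.53, adjusted p = 0.00664), a call lost without P60 replicate 1 (adjusted p = 0.0514, with 0.000648 to 0.0514 over all alternatives). Of the 10 mural markers 2 were lower and 3 higher. The part of these cell types in the collagen result was not tested.

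**Figure D3:**
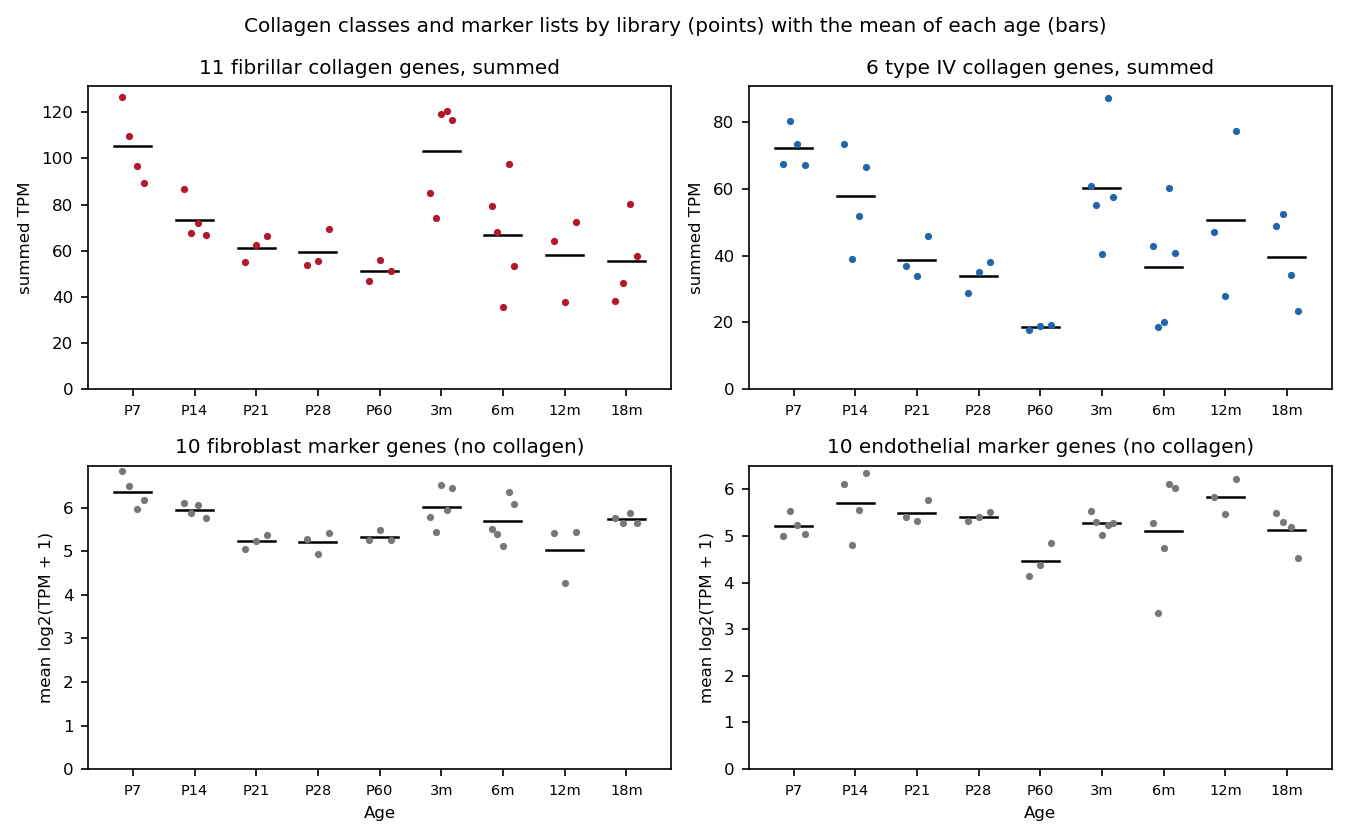
Summed TPM of the 11 fibrillar and of the 6 type IV chains (upper panels), and mean log2(TPM + 1) of 10 fibroblast and of 10 endothelial markers (lower panels), by age from P7 to 18m; points are the 34 libraries and bars the mean of each age. The P60 libraries lie at 46.7 to 56.1 TPM of fibrillar chains and 17.8 to 19.3 TPM of type IV chains, and the P7 libraries at 89.2 to 126.8 and 67.1 to 80.5 TPM.

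For aging, 18m was set against 3m. At 18m no collagen gene was called higher and 12 of 33 were called lower, with 21 not called. Over all genes tested, 4.16% were called higher and 33.4% lower, so the lower count is near the background. The median log2 fold change was -0.56 over the collagens and -0.24 over all genes. Because the median of all genes was shifted, the split depends on scaling: it was 3 higher and 10 lower after median-of-ratios rescaling, and 2 higher and 6 lower after quantile normalization. Col5a3 and Col16a1 were higher under both, and Col9a3 under the first. Of the 12, 3 were fibrillar, 1 was a type IV chain and 8 were of other types.

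The chains that fell at 18m included the most abundant fibrillar ones. Col3a1 measured 6.40, 4.37, 7.4 and 3.39 TPM at 18m, against 16.8, 10.9, 26.9, 24.3 and 24.5 TPM at 3m, 3.84-fold lower on average (log2 fold change -1.74 ± 0.31, adjusted p = 0.000171). Col1a2 measured 14.7, 19.0, 25.5 and 18.0 TPM at 18m, against 33.4, 28.1, 53.4, 45.3 and 47.6 TPM at 3m (-1.05 ± 0.24, adjusted p = 0.00164). Col1a1 was 2.02-fold lower (-0.89 ± 0.22, adjusted p = 0.00247). All 18m libraries of these 3 genes lay below all 3m libraries. Col26a1 measured 4.27, 4.61, 7.68 and 5.13 TPM at 18m, against 21.1, 10.5, 16.5, 21.1 and 16.5 TPM at 3m (-1.49 ± 0.27, adjusted p = 0.000191). Col6a3 was 3.48-fold lower (-1.09 ± 0.22, adjusted p = 0.000496), Col9a1 3.06-fold (-1.10 ± 0.25, adjusted p = 0.00142), Col25a1 3.66-fold (-0.81 ± 0.19, adjusted p = 0.002) and Col22a1 2.28-fold (-0.56 ± 0.15, adjusted p = 0.00526). The calls of Col22a1 and Col25a1 were lost after quantile normalization, where their adjusted p was highest over all alternatives (0.632 and 0.103).

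Col4a6, Col6a5, Col8a2 and Col28a1 were also called lower at 18m, but each call was lost without some libraries. Each was also lost after quantile normalization and in a fit to the 2 ages alone. Median-of-ratios rescaling ended the calls of Col4a6 and Col8a2 as well. Col8a2 averaged 3.33 ± 1.4 TPM at 18m and 7.36 ± 4.5 TPM at 3m (SD), where 3m replicate 4 reached 15.1 TPM. Its log2 fold change was -0.90 ± 0.33 (adjusted p = 0.0351), and it was not called without 3m replicate 1, 4 or 5 or without 18m replicate 1 (adjusted p = 0.0504 to 0.198, with 0.0213 to 0.198 over all alternatives). Col4a6 (-0.47 ± 0.17, adjusted p = 0.0323) was not called without 3m replicate 1, 3 or 5 or 18m replicate 1 or 4 (adjusted p = 0.0543 to 0.122, with 0.00506 to 0.837 over all alternatives). Col6a5 (-0.65 ± 0.20, adjusted p = 0.0135) was not called without 3m replicate 4 or 18m replicate 1 (adjusted p = 0.0593 to 0.0745, with 0.00388 to 0.544 over all alternatives). Col28a1, a relative of the type VI chains, had a log2 fold change of -0.58 ± 0.20 (adjusted p = 0.0212) and was not called without 3m replicate 4 or 5 or 18m replicate 1 or 2 (adjusted p = 0.0504 to 0.0786, with 0.00685 to 0.772 over all alternatives).

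The main type IV chains were not called at 18m. Col4a1 measured 32.3, 28, 17.6 and 10.2 TPM at 18m, against 33, 27.2, 20.6, 43.9 and 29.5 TPM at 3m (log2 fold change -0.55, 95% confidence interval -1.27 to 0.18, adjusted p = 0.226). Col4a2 averaged 11.8 ± 4.9 TPM at 18m and 20.8 ± 8.5 TPM at 3m (-0.75, interval -1.45 to -0.05, adjusted p = 0.0825). Without 3m replicate 3 (adjusted p = 0.0252) and without 18m replicate 2 (adjusted p = 0.0394) Col4a2 was called lower, with 0.0252 to 0.263 over all alternatives. Col6a1 (-0.76 ± 0.31, adjusted p = 0.052) was called lower without 3m replicate 1 (0.0466), 3m replicate 2 (0.0302) or 18m replicate 3 (0.0144), with 0.0144 to 0.3 over all alternatives. The intervals leave room for falls as large as those of Col1a1.

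Markers of other cell types were also read in these libraries, where 33.4% of all genes were called lower at 18m and 4.16% higher. Of 10 fibroblast markers 1 was higher and none lower at 18m, with sums of 836 to 1221 TPM at 18m and 636 to 1328 TPM at 3m. Of 10 endothelial and 10 mural markers none was called in either direction by limma, and 0 and 3 had an unadjusted p under 0.05. The endothelial sum was 807 to 2278 TPM at 18m and 945 to 1252 TPM at 3m, and the mural sum 3175 to 5818 TPM at 18m and 2282 to 3047 TPM at 3m. The part of fibroblasts, endothelial cells and mural cells in the collagen result was not tested. Neuronal markers were called lower in 5 of 6 cases, with sums of 31.8 to 97.8 TPM at 18m and 96.3 to 448 TPM at 3m, and their part in the result for Col25a1 was not tested.

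Companion genes were called lower and higher at 18m, where 33.4% of all genes were lower and 4.16% higher. Among the 26 collagen-processing genes 4 were lower and 2 higher: P4ha3 averaged 16.0 TPM at 18m and 34.3 TPM at 3m (log2 fold change -1.04 ± 0.21), Ppib 736.3 TPM at 18m and 488.6 TPM at 3m (0.60 ± 0.09), and the P3h4 component of the hydroxylation complex 37.6 TPM at 18m and 29.9 TPM at 3m (0.32 ± 0.10). Of the 7 receptors 4 were lower, led by Ddr2 with 6.95 TPM at 18m and 12.5 TPM at 3m (-0.78 ± 0.17), Ddr1 (-0.54 ± 0.18) and Lair1 (-0.44 ± 0.15). Of the 16 basement membrane partners 6 were lower, among them the laminin chains Lamb1 (-0.91 ± 0.28) and Lama2 (-0.52 ± 0.17). Of the 13 genes for degradation 3 were lower and 2 higher, led by the inhibitor Timp2 (-0.47 ± 0.13), Mmp17 (-0.91 ± 0.28) and Mmp2 (0.80 ± 0.27). Of these 11 genes, P4ha3, Ppib, P3h4, Ddr2 and Lamb1 stayed called with any 1 library left out. Rescaling ended some calls: Lamb1 and Mmp17 lost theirs after quantile normalization, Ddr1 and Timp2 after median-of-ratios rescaling, and Lair1 and Lama2 after both. The highest adjusted p over all alternatives was 0.0681 for Lamb1 and 0.742 for Lair1. Ddr1, Lair1, Lama2, Timp2 and Mmp17 lost the call without 18m replicate 1 (adjusted p = 0.0501 to 0.141). Ddr1 lost it also without 3m replicate 4 (0.058), Lair1 without 3m replicate 3 (0.0545), Lama2 without 18m replicate 3 (0.0636) and Mmp17 without 3m replicate 5 (0.0508). Mmp2 lost it without 18m replicate 4, 3m replicate 2 or 18m replicate 3 (adjusted p = 0.0631 to 0.0856).

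**Figure D4:**
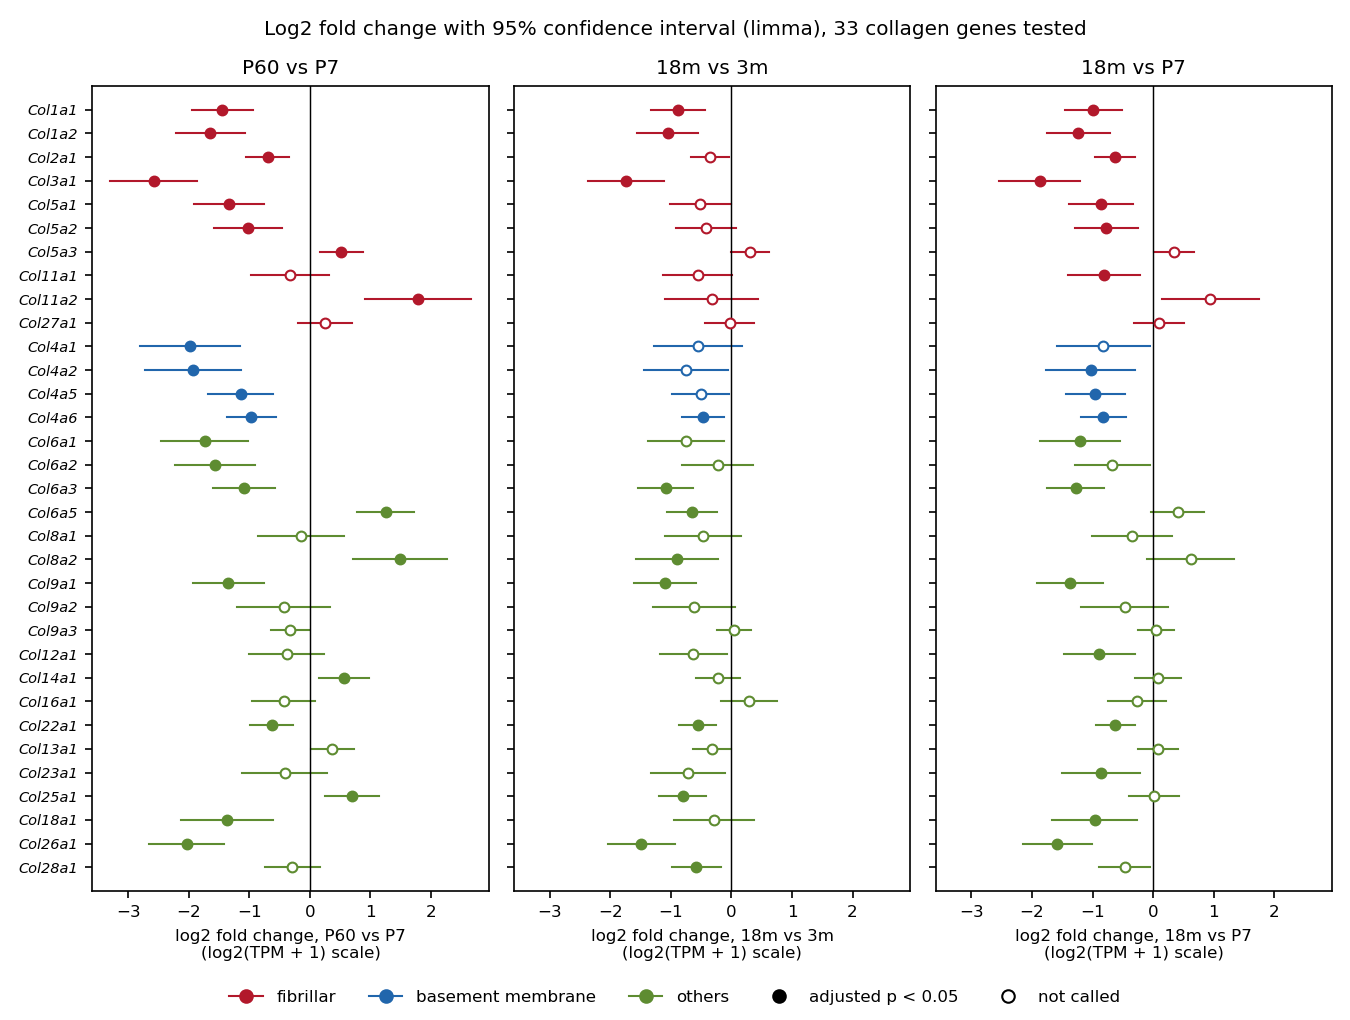
Log2 fold change with its 95% confidence interval for each of the 33 collagen genes in P60 vs P7, 18m vs 3m and 18m vs P7; filled points are called. In P60 vs P7 Col11a2 (1.79) and Col3a1 (-2.58) mark the ends, whereas in the other panels every called point lies below 0.

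The oldest and the youngest ages, 18m and P7, lie in the same range of genes at 0. At 18m 18 of 33 collagen genes were called lower and none higher, beside 24.9% and 4.67% of all genes tested. The median log2 fold change was -0.77 over the collagens and -0.20 over all genes. The split was 2 higher and 11 lower after median-of-ratios rescaling and 2 higher and 12 lower after quantile normalization. The 2 higher genes were Col5a3 and Col11a2 both times. Fibrillar chains supplied 7 of the 18, type IV chains 3 and other types 8. P60 vs P7 and this comparison share the P7 libraries, so they are not independent.

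Levels at 18m were below P7 for the same leading chains. Col3a1 averaged 5.39 ± 1.8 TPM at 18m and 22.1 ± 4.9 TPM at P7 (log2 fold change -1.87 ± 0.33 SE, adjusted p = 0.00014). Col26a1 averaged 5.42 ± 1.5 TPM at 18m and 18.1 ± 3.5 TPM at P7 (-1.58 ± 0.28, adjusted p = 0.000182). Col9a1 fell by 1.37 (adjusted p = 0.000377), Col6a3 by 1.28 (adjusted p = 0.000195), Col1a2 by 1.23 (adjusted p = 0.0009), Col6a1 by 1.21 (adjusted p = 0.00684) and Col1a1 by 0.99 (adjusted p = 0.00221) on the log2 scale. Col4a5 fell by 0.95 (adjusted p = 0.00466), Col5a1 by 0.86 (adjusted p = 0.0144), Col4a6 by 0.83 (adjusted p = 0.00136), Col2a1 by 0.63 (adjusted p = 0.00469) and Col22a1 by 0.62 (adjusted p = 0.00473). These 12 calls held with any 1 library left out, but that of Col5a1 was lost under median-of-ratios rescaling and under quantile normalization (highest adjusted p over all alternatives 0.0697).

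The other 6 calls were lost without some libraries, and all 6 also after median-of-ratios rescaling. All except that of Col12a1 were lost after quantile normalization as well. Col4a2 fell by 1.03 (adjusted p = 0.032) and was not called without P7 replicate 2 or 3 or 18m replicate 3 or 4 (adjusted p = 0.065 to 0.0975). Col18a1 fell by 0.97 (adjusted p = 0.0341) and lost its call without P7 replicate 1, 2 or 3 or 18m replicate 1, 2 or 4 (adjusted p = 0.0509 to 0.0903). Col12a1, which binds to fibrils, fell by 0.89 (adjusted p = 0.0201) and lost its call without 18m replicate 1 or 4 (adjusted p = 0.0544 to 0.081). Col5a2 fell by 0.77 (adjusted p = 0.0234) and lost it without P7 replicate 1 or 2 or 18m replicate 1 or 2 (adjusted p = 0.0543 to 0.0712). Col23a1 fell by 0.86 (adjusted p = 0.0406) and Col11a1 by 0.81 (adjusted p = 0.0359), and both lost it whichever of the 4 P7 libraries was left out and without 18m replicate 1, 2 or 4 (adjusted p = 0.0528 to 0.119 and 0.0514 to 0.111). Over all alternatives these 6 genes ranged from 0.00086 to 0.145. Col4a1 was not called (-0.82 ± 0.37, adjusted p = 0.0929), although its 18m and P7 libraries did not overlap. Col9a3 measured 33.4, 39.5, 59.3 and 50.3 TPM at 18m, around its P7 values, with a log2 fold change of 0.05 and an interval of -0.25 to 0.34.

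Col11a2 was uneven between the 18m libraries. It measured 2.49, 6.21, 17.1 and 17.1 TPM at 18m, against 3.60, 4.17, 4.91 and 3.24 TPM at P7 (log2 fold change 0.95 ± 0.39, adjusted p = 0.0681). Without 18m replicate 1 it was called higher (adjusted p = 0.00603, with 0.000254 to 0.231 over all alternatives). At 6m it measured 18.3, 15.0, 4.29, 4.73 and 4.10 TPM, so libraries of 1 age also fell into a high and a low set there. The 6 oligodendrocyte markers were uneven at both ages, with sums of 190, 498, 917 and 1432 TPM in the 18m libraries and 417, 666, 1344, 261 and 593 TPM in the 6m libraries, in the same order of replicates. At 18m the library lowest for Col11a2 was also lowest for these markers, whereas at 6m the library highest for the markers was among the low set for Col11a2. At P14 to P60 its libraries stayed close together.

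Fibroblast markers beside 18m vs P7 were lower in 4 of 10 cases and higher in none, with sums of 836 to 1221 TPM at 18m and 894 to 1595 TPM at P7. Over all genes tested, 24.9% were lower and 4.67% higher in this comparison. Endothelial markers were lower in 1 of 10 cases and higher in 1, with sums of 807 to 2278 TPM at 18m and 703 to 1122 TPM at P7. Their part in the collagen result was not tested.

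Step by step, 29 calls were made over the 8 intervals between neighbouring ages, 13 of them at 3m against P60 and 9 at 6m against 3m. From P7 to P14, 5 collagen genes were called lower at P14 and none higher, where 8.57% of all genes were lower and 3.28% higher. Col2a1 (log2 fold change -0.70 ± 0.16, adjusted p = 0.00839), Col4a6 (-0.79 ± 0.18, adjusted p = 0.00832) and Col6a3 (-1.03 ± 0.23, adjusted p = 0.00721) kept the call with any 1 library left out. Col16a1 and Col22a1 lost it whichever of the 8 libraries was left out (adjusted p = 0.0509 to 0.13). After either rescaling 3 genes were called lower at P14. At P21 against P14 Col25a1 was called higher and no gene lower on the TPM as deposited, beside 5.6% and 7.59% of all genes, and its call was lost whichever of the 7 libraries was left out (adjusted p = 0.0604 to 0.176). Col9a1 was called lower at P21 after median-of-ratios rescaling (adjusted p = 0.0496) and after quantile normalization (adjusted p = 0.0217), and quantile normalization ended the call of Col25a1. On the TPM as deposited, no collagen gene was called at P28 against P21 (0.0206% of all genes higher, 0% lower), at P60 against P28 (0.212% of all genes higher, 0.905% lower) or at 12m against 6m (0.0343% higher, 0.0206% lower), where 0, 6 and 5 genes had an unadjusted p under 0.05. Col5a3 was called higher at P60 than at P28 after median-of-ratios rescaling (adjusted p = 0.0309) and after quantile normalization (adjusted p = 0.0285). At 18m against 12m Col14a1 alone was lower, beside 18.6% of all genes lower and 1.52% higher, and its call was lost without 12m replicate 3 (adjusted p = 0.0549) and after quantile normalization.

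Within the range shared by P21, P28 and P60, no collagen gene was called at P60 against P21, beside 1.5% of genes higher and 0.356% lower, and 4 genes had an unadjusted p under 0.05. Col4a1 measured 8.01, 8.97 and 8.54 TPM at P60, against 19.8, 18.2 and 24.9 TPM at P21 (log2 fold change -1.20 ± 0.43, adjusted p = 0.147). The groups did not overlap, though the difference missed the threshold in the shared fit. In a fit to these 6 libraries alone, 5 collagen genes were called lower: Col4a1 (adjusted p = 0.0143), Col4a2 (0.0196), Col3a1 (0.0296), Col1a2 (0.0371) and Col1a1 (0.0443).

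Between P60 and 3m the direction turned. At 3m 13 of 33 collagen genes were called higher than at P60 and none lower, while 8.26% of all genes were higher and 1.93% lower. After either rescaling the count was 12 higher and 1 lower, with Col5a3 the lower one. Col3a1 measured 16.8, 10.9, 26.9, 24.3 and 24.5 TPM at 3m, against 2.76, 2.92 and 2.74 TPM at P60 (log2 fold change 2.45 ± 0.34, adjusted p = 1.9e-05). Col26a1 was 4.70-fold higher (1.94 ± 0.29, adjusted p = 6.53e-05), Col1a1 3.07-fold (1.35 ± 0.24, adjusted p = 0.000401) and Col1a2 2.95-fold (1.46 ± 0.27, adjusted p = 0.000684). Col4a1 was 3.63-fold higher (1.70 ± 0.38, adjusted p = 0.00507) and Col4a2 3.79-fold (1.65 ± 0.37, adjusted p = 0.0048). Those 6 calls held with any 1 library left out. The calls of Col5a1, Col6a1 and Col9a1 were lost without P60 replicate 1 or 3, of Col6a2 whichever P60 library was left out, of Col6a3 without P60 replicate 1, of Col22a1 without P60 replicate 2 or 3 or 3m replicate 4, and of Col4a6 whichever P60 library was left out and without 3m replicate 1, 3 or 5 (adjusted p = 0.0502 to 0.149). This step shares its P60 libraries with P60 vs P7, and P60 and 3m lie in different ranges of genes at 0. At 3m against P60, 3 of 10 fibroblast markers and 3 of 10 endothelial markers were higher and none lower, and their part in the result was not tested.

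At 6m 9 of 33 collagen genes were called lower than at 3m and none higher, beside 7.25% and 2.07% of all genes, within a range of genes at 0. Quantile normalization left 4 lower, Col3a1, Col6a5, Col8a2 and Col26a1, and median-of-ratios rescaling left 9. Col26a1 measured 6.55, 4.82, 7.68, 10.2 and 6.64 TPM at 6m, against 21.1, 10.5, 16.5, 21.1 and 16.5 TPM at 3m (log2 fold change -1.14 ± 0.25, adjusted p = 0.00706). Its 6m libraries were all below its 3m libraries. Col6a5 (-0.81 ± 0.19, adjusted p = 0.0109) and Col8a2 (-1.25 ± 0.31, adjusted p = 0.0151) also held with any 1 library left out. However, all 9 genes lost the call in a fit to the 6m and 3m libraries alone. There the adjusted p was 0.0613 for Col26a1, 0.134 for Col6a5 and 0.0949 for Col8a2. Col3a1 (-1.11 ± 0.29, adjusted p = 0.0183) lost the call without 3m replicate 5 (adjusted p = 0.0538, with 0.0022 to 0.148 over all alternatives). Col1a1, Col2a1, Col6a3, Col9a1 and Col22a1 each lost it without 5 to 7 of the 10 libraries in turn (adjusted p = 0.0527 to 0.149). Neither Col4a1 nor Col4a2 was called at this step with all libraries. Col4a1 was called lower without 6m replicate 4 (adjusted p = 0.0307, with 0.0307 to 0.684 over all alternatives). Col4a2 was called lower without 3m replicate 3 (0.0236), 6m replicate 1 (0.0471) or 6m replicate 4 (0.0288). Its adjusted p ranged from 0.0236 to 0.575 over all alternatives. Col4a1 measured 19.9, 6.98, 8.76, 32.5 and 25.2 TPM at 6m. Its lowest libraries, 6m replicates 2 and 3, were also the lowest for Cldn5. They held 60.2 and 107 TPM of Cldn5, against 327, 352 and 660 TPM in the other 6m libraries. The part of endothelial transcripts in the type IV values of 6m replicates 2 and 3 was not tested. A fit without these 2 libraries, chosen after seeing the data, is among the alternatives but does not measure that part.

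With 6m in place of 3m as the younger age, aging gave another count, and 18m and 6m also lie in different ranges of genes at 0. At 18m Col5a3 was called higher than at 6m and no collagen gene lower, beside 2.63% and 17.7% of all genes. Higher calls numbered 3 after median-of-ratios rescaling (Col5a3, Col9a3 and Col16a1) and 2 after quantile normalization (Col5a3 and Col16a1). Col5a3 measured 2.28, 2.77, 4.63 and 3.00 TPM at 18m, against 1.78, 1.94, 2.01, 2.25 and 2.16 TPM at 6m (log2 fold change 0.43 ± 0.15, adjusted p = 0.0424). Its call was lost without 6m replicate 1, 2, 3 or 4 or 18m replicate 2, 3 or 4 (adjusted p = 0.0503 to 0.184), while its adjusted p was 0.00573 after median-of-ratios rescaling and 0.00983 after quantile normalization. Col3a1 averaged 5.39 ± 1.8 TPM at 18m, 5.01 ± 2.7 TPM at 12m, 9.72 ± 5.9 TPM at 6m and 20.7 ± 6.7 TPM at 3m (SD). Its mean at 3m stood above all 3 later ages. At 12m, replicate 3 differed from the others for Col26a1, with 14.4 TPM against 3.19 and 3.23 TPM, and it was also the 12m library in the lowest range of genes at 0.

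On the TPM as deposited, 6 chains tested were called in none of P60 vs P7, 18m vs 3m and 18m vs P7, and their levels ranged widely. Col27a1, a fibrillar chain, averaged 2.61 to 4.70 TPM across the ages. Col13a1, a transmembrane collagen of the neuromuscular junction, averaged 2.52 to 3.72 TPM, and the type VIII chain Col8a1 1.25 to 2.62 TPM. Col16a1 averaged 10.9 to 20.5 TPM and was highest at P7, while Col9a2 averaged 3.83 to 10.4 TPM. Of the 44 genes, 18 averaged 5 TPM or more at some age. They included chains that fell, chains that rose, and Col9a3, Col9a2 and Col16a1, which passed the threshold in none of the 3 on the TPM as deposited.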

How the data were processed

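RNA of magnetically isolated cortical astrocytes was sequenced after SMART-Seq v4 amplification, per the labels' protocols. TPM values, corrected for gene length and scaled to a fixed total in each library, were deposited by the authors in a single table; the tools listed in the submitters' processing notes, with no role given, are RSEM 1.2.28, STAR 2.7.1a, DESeq2 1.36.0 and Trim Galore 0.6.4, with the build mm10. Strand use in counting is not given in the sources used here. TPM keep no depth, so no counting interval is given, and only the spread between libraries limits precision. Libraries were grouped by the age in their labels.

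From these values log2(TPM + 1) was computed for 14590 of 20613 genes, those reaching 1 TPM in 3 or more libraries, and 1 gene without values was left out. limma 3.58.1 was used to fit 1 mean for each age, over the 34 libraries together (R 4.3.3, statmod 1.5.0; trend and robust settings), with Benjamini-Hochberg adjustment over all genes tested, and the code was tested on simulated data. Alternatives were a pseudocount of 0.1, other filters, 2 rescalings, array weights, a replicate block, fits to the 2 ages alone, 6m in place of 3m, and each library left out in turn. A fit without 6m replicates 2 and 3 was added after seeing the data. For comparisons with 6m it counts among all alternatives and in the values that kept or lost a call. No 2 libraries held identical values; Pearson correlations of log2(TPM + 1) over the 50 replicate pairs ran from 0.974 to 0.996. Every collagen gene was accounted for: those with a mean of at least 5 TPM at some age, or called in a main comparison, were named, and from each companion list the 3 genes of smallest p, of which 1 is not reported here. The members and lists were chosen with earlier results of these data known. Gene positions are from GENCODE M21 (GRCm38) and promoters from RefSeq (GRCm38.p6). Sums and figures were made with Python 3.11.15, pandas 2.3.3 and matplotlib 3.10.9.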

Additional observations from a re-analysis of the deposited data

Results flagged for a closer look

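In 5 of 90 groups of 4 or 5 libraries, counted over the collagen genes described by library, a single library lay far from its fellows relative to the range of the group; chance flags about 1 group in 20. Col3a1 was highest in P14 replicate 1, with 17.3 TPM. Col5a1 was lowest in P14 replicate 4, with 1.92 TPM, and highest in 18m replicate 3, with 4.42 TPM. Col4a5 was highest in P7 replicate 1, with 9.10 TPM. Col8a2 was highest in 3m replicate 4, with 15.1 TPM.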

How the results depend on the processing

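Of 127 log2 fold changes of single genes, 112 were called, and under the alternatives their 1760 values kept the call in 1516 cases, lost it in 244 and reversed in 0. With a filter of 5 TPM fewer collagen genes were tested, and calls numbered 14 for P60 vs P7, 5 for 18m vs 3m, 11 for 18m vs P7 and 15 over the 9 ages. For P60 vs P21, where none was called, array weights gave 2 calls and a fit to the 2 ages alone gave 5. With 6m in place of 3m, 18m gave 1 call, a higher one, and 3 and 2 higher calls after median-of-ratios rescaling and quantile normalization. With 1 library left out, calls ranged from 21 to 28 for P60 vs P7, from 8 to 18 for 18m vs 3m, from 13 to 18 for 18m vs P7, from 21 to 28 over the 9 ages, and were 0 throughout for P60 vs P21. Without the 3m libraries, an alternative chosen after seeing the data, 24 genes differed over the remaining ages. The replicate numbers did not pair libraries: deviations from the age means correlated by 0.0023 on average over 119 pairs of the same number, 26 of them above 0.1, and 8 of 34 libraries correlated best with their own number. With a replicate block the counts were 23, 13, 17, 21 and 0 for P60 vs P7, 18m vs 3m, 18m vs P7, the 9 ages and P60 vs P21. Depth is unknown, which limits what can be said of members under 1 TPM.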
